A study of Mus musculus with 12 samples.

Results

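The mRNA of 10 cytokine receptor chains was measured by RNA sequencing in lymph node (LN) T cells: *Il2rg*, *Il2rb*, *Il7r*, *Il4ra*, *Il15ra*, *Il21r* and *Il9r* of the common gamma chain family, *Il6ra* and *Il6st* of the IL-6 receptor, and *Ifngr1* of the interferon gamma receptor. They were chosen by symbol from the 49585 genes of the count table, and all 10 were among the 13118 genes that passed the filter on low counts. Each of 4 groups held 3 samples of T cells from male mice aged 6 to 10 weeks, sorted as TCRβ+ (H57 antibody) and CD62L+. B6 CD4 and B6 CD8 were the CD4+ and CD8+ T cells of wild-type C57BL/6 mice. CD8.1 and CD8.2 came from CD8Dual mice, named 8in4 in the labels, which carry the intact *Cd8* loci and *Cd4* loci that encode CD8α.1 and CD8β in place of CD4. CD8.1 T cells bear the *Cd4*-encoded and CD8.2 T cells the *Cd8*-encoded co-receptor, so no CD8Dual cell bears CD4. RNA was made from pooled sorted cells, and where no label says that samples came from separate mice, P values measure only the spread between these samples.

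The common gamma chain, encoded by *Il2rg*, joins with a private chain to form the receptors of IL-2, IL-4, IL-7, IL-9, IL-15 and IL-21, and signals through JAK1 and JAK3 to STAT proteins. IL-7 keeps naive T cells alive, and IL-15, received by the IL-2Rβ chain that *Il2rb* encodes, maintains memory CD8+ T cells. The IL-6 receptor α chain joins gp130, encoded by *Il6st*, and *Ifngr1* encodes the ligand-binding chain of the interferon gamma receptor. In the thymus, several of these cytokines take part in the induction of Runx3d and of the cytotoxic fate.

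Most chains of this receptor class carry the motif WSXWS, tryptophan-serine-any residue-tryptophan-serine, in the extracellular part. It was found in the translated coding sequence of 8 of the 10 genes and absent from *Il15ra*, whose protein binds its cytokine through a sushi domain, and from *Ifngr1*, which belongs to the class II receptors. The coding sequence around it is given because it is a feature that these 8 chains share. Each run holds 33 bases of the longest principal GENCODE M21 transcript, 5′ to 3′, and the 15 motif bases are in capitals.
Il2rg: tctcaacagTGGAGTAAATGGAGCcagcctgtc
Il2rb: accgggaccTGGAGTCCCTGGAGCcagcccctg
Il7r: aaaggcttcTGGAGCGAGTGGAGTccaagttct
Il4ra: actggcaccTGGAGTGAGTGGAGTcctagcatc
Il21r: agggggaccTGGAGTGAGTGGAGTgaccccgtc
Il9r: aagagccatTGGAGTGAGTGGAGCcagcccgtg
Il6ra: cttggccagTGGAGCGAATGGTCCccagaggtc
Il6st: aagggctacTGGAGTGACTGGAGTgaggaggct
*Il4ra* and *Il21r* shared 15 of 15 motif bases, and *Il2rb* and *Il6ra* shared the fewest, 9 of 15.

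The genes lie on 8 chromosomes of GRCm38. *Il2rg* is at chrX:101264378-101268255, minus strand. *Il2rb* is at chr15:78479256-78495271 and *Il7r* at chr15:9505788-9530176, both on the minus strand. *Il4ra* at chr7:125552120-125579474 and *Il21r* at chr7:125603429-125633570 are neighbours on the plus strand, 23954 bases apart. *Il15ra* is at chr2:11705290-11734317, plus strand, 12096 bases from *Il2ra*. *Il9r* is at chr11:32187541-32200279, minus strand. *Il6ra* is at chr3:89864059-89913196, minus strand, and *Il6st* at chr13:112464070-112510086, plus strand. *Ifngr1* is at chr10:19591949-19610229, plus strand. *Il2rg* overlaps *Gm20489*, *Il4ra* overlaps *Gm44876* and *Il6ra* overlaps *Gm42809*, so counts of these 3 chains are less certain where reads fell in the overlap. The values of every member are counts over all its transcripts.

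Total counts ranged from 18667474 to 37110502 per sample. *Cd4* averaged 968 CPM (counts scaled to a fixed library total) in B6 CD4 and 0.244 CPM in B6 CD8, and *Cd8a* averaged 1422 CPM in B6 CD8 and 1.17 CPM in B6 CD4. In CD8.1, *Cd4* averaged 49.7 CPM and *Cd8a* 192 CPM, and in CD8.2 they averaged 1.47 and 1459 CPM. *Cd8b1* averaged 33.1 CPM in B6 CD4 and 2234 CPM in B6 CD8, with 193 CPM in CD8.1 against 2001 CPM in CD8.2. The table gives counts per gene, and from which locus these reads came was not tested. *Zbtb7b*, which encodes the helper factor ThPOK, averaged 159 CPM in B6 CD4 and 154 CPM in CD8.1, against 0.930 CPM in B6 CD8 and 1.90 CPM in CD8.2. The study's methods also name a CD44- gate for this sort, and *Cd44* mRNA averaged 35.0 CPM in B6 CD4 and 51.0 CPM in B6 CD8, against 71.9 in CD8.1 and 55.1 in CD8.2. The summed CPM of 8 T cell markers lay between 4060 and 4710 in all samples. Some libraries stood apart. CD8.1 replicate 1 had the largest departure from its group's median, with an SD of 0.37 on the log2 scale over all tested genes, against 0.21 to 0.31 in the other libraries. In CD8.2 replicate 3, *Gm42418*, an rRNA-overlapping locus, reached 34000 CPM, against 895 to 8880 CPM in the others.

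The 4 groups differed most for *Il9r*, *Il2rb*, *Ifngr1* and *Il6ra*, whose group means spanned 5.38, 2.32, 1.25 and 1.19 on the log2 CPM scale. *Il15ra* spanned 0.93, and the other 5 chains spanned 0.083 to 0.49. Per kilobase of exon, the scale on which genes can be compared with each other, *Il2rg* was the most abundant chain in every group, at 157 to 206 CPM per kb. *Il7r* had 73.1 to 84.2 and *Il21r* 72.4 to 76.7 CPM per kb. *Il2rb* was the second chain in B6 CD8, with 110 ± 4.57 CPM per kb (SD, n = 3), and had 22.2 ± 3.33 CPM per kb in B6 CD4. *Ifngr1* ranged from 33.4 CPM per kb in B6 CD4 to 79.9 CPM per kb in CD8.2, and *Il4ra*, *Il6ra* and *Il6st* stayed between 14.8 and 54.2 CPM per kb. *Il15ra* and *Il9r* were the least abundant, with 1.50 CPM per kb or less in every group.

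**Figure D1:**
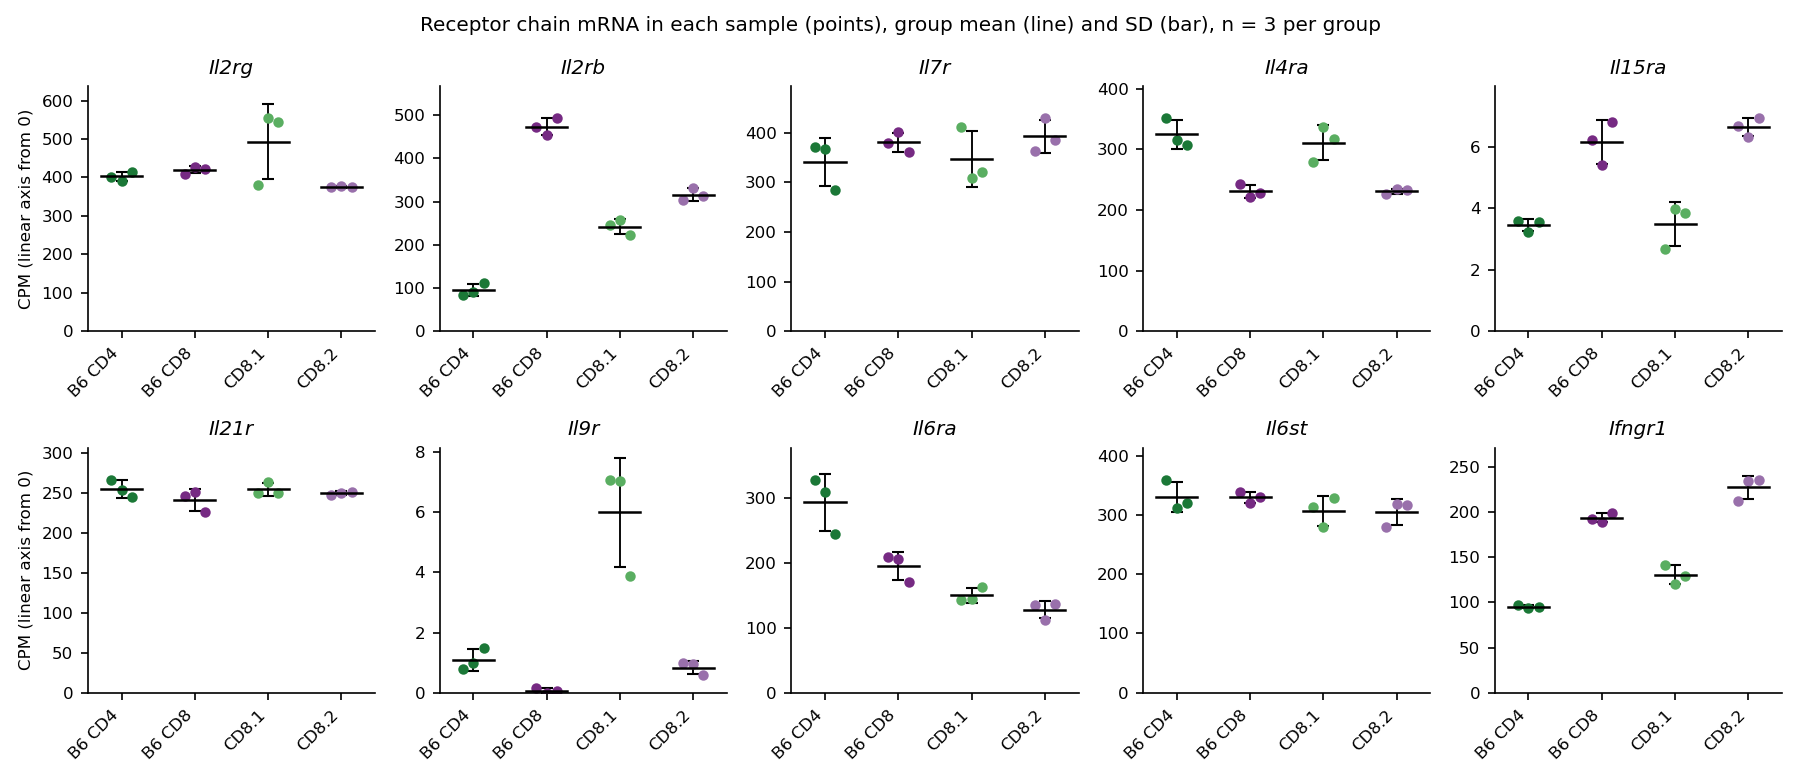
CPM of each receptor chain (linear axes from 0) in each of the 3 samples of each group (points), with the group mean (horizontal line) and SD (bar). *Il2rb* shows 4 separate levels, *Ifngr1* and *Il15ra* are higher in B6 CD8 and CD8.2 than in B6 CD4 and CD8.1, *Il9r* is highest in CD8.1, and *Il21r* and *Il6st* are level across the groups.

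B6 CD4 and B6 CD8, the 2 lineages of wild-type mice, differed in 6 of the 10 chains by edgeR's quasi-likelihood test at an adjusted P under 0.05. *Il4ra*, *Il9r* and *Il6ra* were higher in B6 CD4, and *Il2rb*, *Il15ra* and *Ifngr1* were higher in B6 CD8. Of all tested genes, 11.4% were higher and 11.7% lower in B6 CD4. CD8.1 and CD8.2, which both bear CD8 co-receptors, also differed in 6 chains. *Il2rg*, *Il4ra* and *Il9r* were higher in CD8.1, and *Il2rb*, *Il15ra* and *Ifngr1* were higher in CD8.2, against 14.9% of tested genes higher and 13.8% lower in CD8.1. The median log2 difference of the 10 chains was −0.03 in B6 and 0.02 in CD8Dual, and the median over all tested genes was −0.001 and −0.005.

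Within the helper lineage, 3 chains were higher in CD8.1 T cells than in B6 CD4 (*Il2rb*, *Il9r* and *Ifngr1*) and 1 was lower (*Il6ra*), against 6.94% and 5.82% of tested genes. Within the cytotoxic lineage, *Il9r* was higher and *Il2rb* and *Il6ra* were lower in CD8.2 T cells than in B6 CD8, against 3.29% higher and 4.66% lower. The lineage difference itself differed between the strains for 1 chain, *Il2rb*, against 1.58% of tested genes with a positive and 0.29% with a negative term. These comparisons share groups: each group enters both a lineage and a strain comparison, so their values are not independent of each other. The median log2 difference of the 10 chains was 0.02 between CD8.1 and B6 CD4 and 0.02 between CD8.2 and B6 CD8, with a median over all tested genes of 0.002 and −0.004. In bulk RNA, fewer cells that express a chain and less RNA per cell cannot be told apart.

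**Figure D2:**
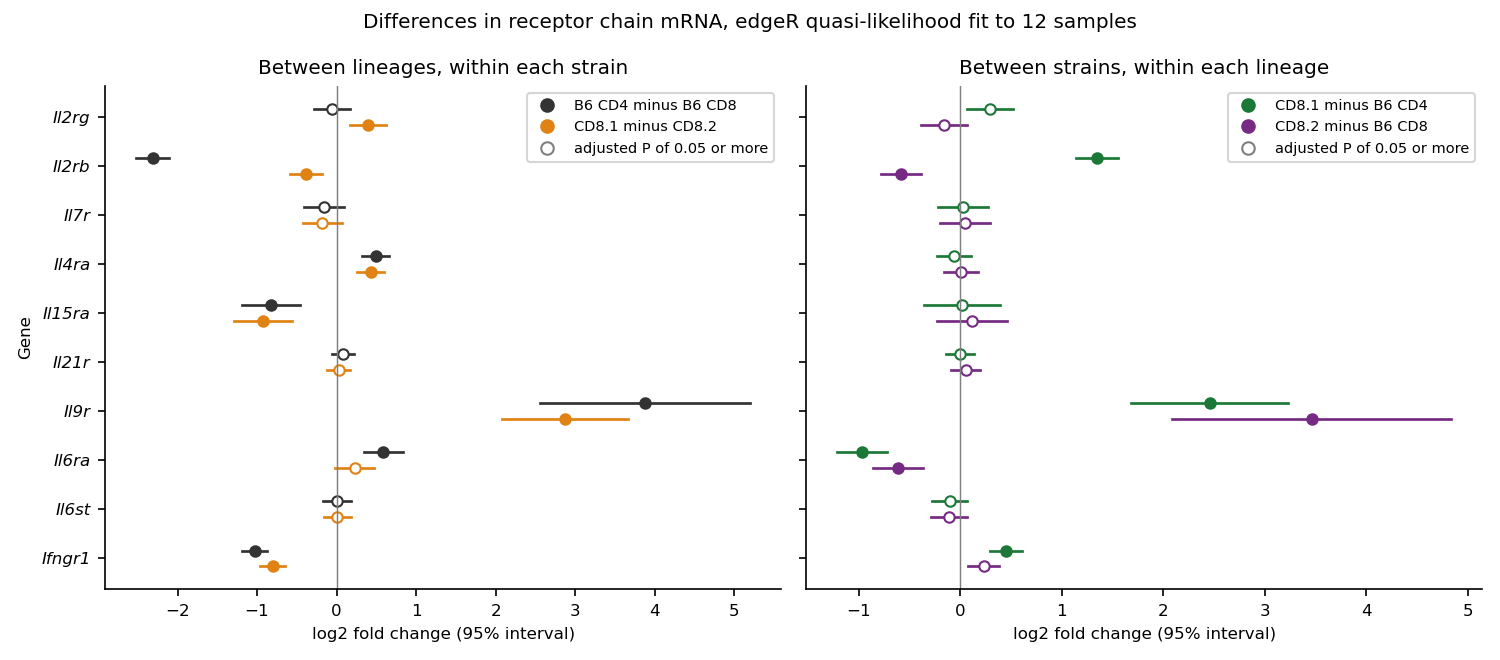
Fitted log2 fold change of each receptor chain (points) with its 95% interval (lines), between lineages within each strain (left) and between strains within each lineage (right). Filled points had an adjusted P under 0.05 and open points did not. *Il2rb* differed by −2.31 between lineages in B6 and by −0.39 in CD8Dual, and *Il9r* was on the positive side in all 4 comparisons.

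Limits on fold size left fewer chains. With the limits that the study set for its differentially expressed genes, a fold change over 5 and an unadjusted P under 0.05, *Il9r* alone passed in the 4 pairwise comparisons and no chain passed for the difference between strains. Of all tested genes, 3.29% (B6 lineages), 3.32% (CD8Dual lineages), 0.61% (CD8.1 and B6 CD4), 0.579% (CD8.2 and B6 CD8) and 1.16% (difference between the strains) passed. With an adjusted P under 0.05 and a fold change over 2, *Il2rb*, *Il9r* and *Ifngr1* passed in B6, *Il9r* in CD8Dual, *Il2rb* and *Il9r* between CD8.1 and B6 CD4, *Il9r* between CD8.2 and B6 CD8, and *Il2rb* for the difference between strains. The shares of all tested genes were 8.42%, 9.15%, 3.11%, 1.69% and 1.36% in the same order.

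*Il2rg*, the shared chain, was at a similar level in both B6 lineages. Its CPM was 402, 391 and 415 in B6 CD4 and 409, 427 and 423 in B6 CD8, against 380, 553 and 545 in CD8.1 and 374, 378 and 374 in CD8.2. Replicate 1 of CD8.1 lay near the CD8.2 samples, and the other CD8.1 samples were above every other library. CD8.1 exceeded CD8.2 by 0.39 on the log2 scale (SE 0.11, 1.31-fold, adjusted P = 0.0122). That call rested on the 2 high samples, with an adjusted P of 0.0695 without replicate 2 and 0.056 without replicate 3. Without replicate 1, *Il2rg* was also higher in CD8.1 T cells than in B6 CD4 (0.43 on the log2 scale, adjusted P = 0.000151), where the fit to all samples gave 0.29 (adjusted P = 0.0858). The B6 lineages differed by −0.06, with a 95% interval from −0.29 to 0.17.

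*Il2rb*, the signalling chain shared by the IL-2 and IL-15 receptors, took a separate level in each group. Its CPM was 83.4, 91.0 and 111 in B6 CD4, 223, 246 and 257 in CD8.1 across replicates 3, 1 and 2, 303, 332 and 312 in CD8.2, and 472, 454 and 493 in B6 CD8. No 2 groups overlapped, and the order was B6 CD8, CD8.2, CD8.1 and B6 CD4. In B6, *Il2rb* was 4.97-fold lower in the CD4+ cells (log2 fold change −2.31, SE 0.098, adjusted P = 8.26e-11). In CD8Dual mice it was 1.31-fold lower in CD8.1 T cells than in CD8.2 (−0.39, SE 0.094, adjusted P = 0.00627). Both CD8Dual groups lay between the B6 groups. CD8.1 was 2.54-fold higher than B6 CD4 (1.35, SE 0.096, adjusted P = 8.88e-07), and CD8.2 was 1.50-fold lower than B6 CD8 (−0.58, SE 0.094, adjusted P = 0.00153). The lineage difference was smaller in CD8Dual mice by 1.93 on the log2 scale (SE 0.13, 95% interval 1.64 to 2.21, adjusted P = 4.78e-07). Among the 13118 tested genes, this term ranked 9 by P value. Leaving out any 1 sample kept it between 1.84 and 2.04.

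Markers of 2 other T cell states moved with these groups. The 8 naive T cell markers summed to 5710 to 6040 CPM in B6 CD4 and 5200 to 5610 CPM in B6 CD8. In CD8.1 the sum was 5370 to 6120 CPM, and in CD8.2 5340 to 5470 CPM. Of these 8, 0 were higher and 2 lower in CD8.1 T cells than in B6 CD4. Between CD8.2 and B6 CD8, 1 was higher and 1 lower. In each strain, 4 were higher and 1 lower in the helper lineage. The counts of markers called stand beside the shares of all tested genes. These were 6.94% higher and 5.82% lower between CD8.1 and B6 CD4, and 3.29% and 4.66% between CD8.2 and B6 CD8. Between CD8.1 and CD8.2 they were 14.9% and 13.8%, and between the B6 lineages 11.4% and 11.7%. For the difference between strains, 1.58% had a positive and 0.29% a negative term. Of 10 regulatory T cell markers, 9 were higher in CD8.1 T cells than in B6 CD4, and their summed CPM was 259 to 378 in B6 CD4 and 88.5 to 91.7 in B6 CD8, against 654 to 735 in CD8.1 and 83.5 to 85.9 in CD8.2. *Foxp3*, their defining factor, averaged 38.3, 0.332, 140 and 1.24 CPM. Of 10 memory or innate memory markers, 6 were higher and 1 lower in CD8.1 T cells than in B6 CD4, and 4 were lower in CD8.2 T cells than in B6 CD8. Their summed CPM was 274 to 335 in B6 CD4 and 1900 to 2310 in B6 CD8. In CD8.1 it was 342 to 366, and in CD8.2 1360 to 1420. *Itga4* alone averaged 238 CPM in B6 CD4 and 217 CPM in CD8.1. *Ly6c2* and *Nkg7* averaged 764 and 525 CPM in B6 CD8, and 406 and 407 CPM in CD8.2. The sums rest largely on these genes and do not measure the share of memory cells. For the difference between the strains' lineage differences, 5 of the 10 memory and 4 of the 10 regulatory T cell markers had a positive term that passed the test. The list medians were 1.32 and 0.79 on the log2 scale. The sign has a different meaning in each list. The median lineage difference of the memory markers was smaller in CD8Dual mice (−2.925, against −4.365 in B6). That of the regulatory T cell markers was larger (4.681, against 2.96 in B6). Regulatory and memory T cells are both known to express *Il2rb*, and their part in its levels here was not tested. Of 7 NK and NKT cell markers, 5 were tested and 1 was higher in CD8.1 T cells than in B6 CD4, with sums of 1.77 to 3.36, 10.2 to 19.5, 3.72 to 6.14 and 5.63 to 8.11 CPM. *Zbtb16*, which encodes the NKT cell factor PLZF, had 0 counts in all B6 libraries, 4 to 23 in CD8.1 and 0 to 1 in CD8.2. The 8 B cell markers summed to 62.9 to 96.1 CPM in the B6 libraries, 108 to 167 CPM in CD8.1 and 74.3 to 135 CPM in CD8.2. The 9 myeloid markers, of which 7 were tested, summed to 5.69 to 12.5 CPM in B6, 17.7 to 22.8 CPM in CD8.1 and 10.8 to 25.2 CPM in CD8.2. The *Itgam* entry in this sum had 0 counts in all libraries and overlaps another gene of that name, which was not summed. Of these markers, 2 B cell and 3 myeloid ones were higher in CD8.1 T cells than in B6 CD4, 3 and 1 were higher in CD8.2 T cells than in B6 CD8, and 2 and 1 were higher in CD8.1 T cells than in CD8.2. Between the B6 lineages, 5 B cell markers were higher and 1 lower in B6 CD4, and 1 myeloid marker was lower. Their part in the levels of the chains was not tested.

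*Il7r*, which encodes the IL-7 receptor α chain, did not differ by the test in any comparison. Its CPM was 371, 367 and 284 in B6 CD4 and 378, 401 and 362 in B6 CD8, against 411, 309 and 320 in CD8.1 and 363, 429 and 385 in CD8.2. All 4 groups overlapped their neighbours in the order of levels. The fitted difference was −0.16 between the B6 lineages (95% interval −0.41 to 0.09) and −0.18 between CD8.1 and CD8.2 (−0.43 to 0.07). Replicate 1 of CD8.1, the library that stands apart, had the highest value of its group, and without it CD8.1 was lower than CD8.2 by 0.33 (−0.33, adjusted P = 0.0204).

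*Il4ra* and *Il21r*, which are neighbours in the genome, behaved differently. *Il4ra*, the private chain of the IL-4 receptor, had 352, 316 and 307 CPM in B6 CD4 and 242, 222 and 228 CPM in B6 CD8. It had 279, 336 and 318 CPM in CD8.1 and 226, 234 and 233 CPM in CD8.2. Every B6 CD4 and CD8.1 sample was above every B6 CD8 and CD8.2 sample. The difference was 1.41-fold in B6 (0.49, SE 0.079, adjusted P = 0.000234) and 1.35-fold in CD8Dual mice (0.43, SE 0.079, adjusted P = 0.000848). The strains did not differ by the test, with 95% intervals from −0.23 to 0.10 for CD8.1 and B6 CD4 and from −0.17 to 0.17 for CD8.2 and B6 CD8.

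*Il21r*, the IL-21 receptor chain, lay between 225 and 266 CPM in all 12 samples, and the groups averaged 255 ± 11 (B6 CD4), 241 ± 13.6 (B6 CD8), 254 ± 8.26 (CD8.1) and 250 ± 2.15 CPM (CD8.2; SD, n = 3). All 95% intervals of the 4 pairwise differences lay within −0.14 and 0.22 on the log2 scale.

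*Il15ra*, which presents IL-15 and binds it with high affinity, was low in all groups and higher in the cytotoxic lineage of both strains. Its CPM was 3.59, 3.23 and 3.57 in B6 CD4 and 6.22, 5.42 and 6.83 in B6 CD8. It was 2.67, 3.98 and 3.84 in CD8.1 and 6.68, 6.33 and 6.94 in CD8.2, with 56 to 238 counts per library. The lineages did not overlap in either strain. The difference was 1.77-fold in B6 (−0.82, SE 0.17, adjusted P = 0.00195) and 1.90-fold in CD8Dual mice (−0.93, SE 0.17, adjusted P = 0.000793). Between strains, the 95% interval was −0.36 to 0.39 for CD8.1 and B6 CD4 and −0.23 to 0.46 for CD8.2 and B6 CD8.

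*Il9r*, the private chain of the receptor for IL-9, a cytokine of type 2 responses, was the chain with the largest relative differences and one of the lowest levels. B6 CD4 libraries held 17, 23 and 35 counts, B6 CD8 libraries 4, 0 and 1, CD8.1 libraries 148, 159 and 82, and CD8.2 libraries 23, 17 and 20. These correspond to means of 1.08 ± 0.37, 0.071 ± 0.084, 5.99 ± 1.82 and 0.835 ± 0.219 CPM (SD, n = 3). B6 CD8 was near the limit that a count of 0 allows, 3 counts or 0.0874 to 0.167 CPM per library. CD8.1 was above every other library, and B6 CD4 and CD8.2 overlapped (adjusted P = 0.507). From the summed counts, CD8.1 was 7.60-fold above CD8.2 (95% counting interval 5.78 to 10.2) and 5.51-fold above B6 CD4 (4.30 to 7.16). B6 CD4 was 15.9-fold above B6 CD8 (6.51 to 50.3), and CD8.2 was 11.5-fold above B6 CD8 (4.67 to 36.7). These intervals cover counting error only. The size of the fitted log2 differences from B6 CD8 depended on single B6 CD8 libraries, while the calls held whichever sample was left out. For B6 CD4 it was 3.88, with 5.39 without B6 CD8 replicate 1 and 3.24 without replicate 2, and for CD8.2 it was 3.46, with 4.96 and 2.82. In the fit, all 4 differences had an adjusted P between 3.58e-05 and 0.00447, while the difference between the strains' lineage differences was −1.01 (SE 0.78, adjusted P = 0.621). The summed regulatory T cell markers and *Zbtb16* were also highest in CD8.1. The summed NK and NKT cell markers were highest in B6 CD8, with 10.2 to 19.5 CPM against 3.72 to 6.14 CPM in CD8.1. The regulatory T cell markers summed to 88.5 to 91.7 CPM in B6 CD8 and 83.5 to 85.9 CPM in CD8.2. Of these 10 markers, 2 were higher and 1 lower in CD8.2 T cells than in B6 CD8, against 3.29% and 4.66% of tested genes. *Foxp3* averaged 0.332 CPM in B6 CD8 and 1.24 CPM in CD8.2. The part of these cells in the *Il9r* level was not tested.

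*Il6ra*, the ligand-binding IL-6 receptor chain, was lower in both CD8Dual groups than in their B6 counterparts. Its CPM was 328, 309 and 244 in B6 CD4 and 210, 206 and 171 in B6 CD8, against 143, 144 and 163 in CD8.1 and 135, 112 and 137 in CD8.2. All 4 groups were separate, with B6 CD4 highest and CD8.2 lowest. CD8.1 was 1.96-fold lower than B6 CD4 (−0.97, SE 0.12, adjusted P = 0.000123), and CD8.2 was 1.53-fold lower than B6 CD8 (−0.61, SE 0.12, adjusted P = 0.00487). In B6, the CD4+ cells were 1.50-fold higher (0.59, SE 0.12, adjusted P = 0.00125). CD8.1 and CD8.2 differed by 0.23 (SE 0.12), which did not pass the test (adjusted P = 0.155) although the samples did not overlap. The difference between the 2 lineage differences was −0.36 (adjusted P = 0.353).

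*Il6st*, which encodes gp130, the signalling chain shared by the IL-6 family, had 311 to 360 CPM in B6 CD4 and 320 to 338 in B6 CD8, against 279 to 328 in CD8.1 and 280 to 317 in CD8.2. It did not differ by the test, and the 4 pairwise 95% intervals lay within −0.29 and 0.18. The CD8.2 samples were all below the B6 CD8 samples (−0.11, adjusted P = 0.445), and the other pairs of groups compared overlapped.

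*Ifngr1* was higher in the cytotoxic lineage of both strains. Its CPM was 96.8, 94.0 and 94.8 in B6 CD4 and 193, 190 and 199 in B6 CD8. In CD8Dual mice it was 141, 120 and 129 in CD8.1 and 212, 234 and 236 in CD8.2, and no 2 groups overlapped. The lineage difference was 2.04-fold in B6 (−1.03, SE 0.074, adjusted P = 4.07e-08) and 1.74-fold in CD8Dual mice (−0.80, SE 0.073, adjusted P = 8.54e-07). CD8.1 was 1.37-fold above B6 CD4 (0.45, SE 0.074, adjusted P = 0.00145). CD8.2 and B6 CD8 differed by 0.23 (SE 0.073, 95% interval 0.08 to 0.38), with an adjusted P of 0.0656 in the edgeR fit and 0.0274 by the DESeq2 Wald test.

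In the order of levels, neighbouring groups could be told apart at every step only for *Il2rb*. For *Il4ra* and *Il15ra*, the step that passed the test was the one between the lineages, and it passed for CD8.1 against B6 CD8 in *Il15ra* (adjusted P = 0.00164). *Il6ra* in CD8.1 was below B6 CD8 (−0.38, adjusted P = 0.0162), a call lost without B6 CD8 replicate 1, B6 CD8 replicate 2 or CD8.1 replicate 2 (adjusted P = 0.0642, 0.0581 and 0.0519). *Ifngr1* in CD8.1 was below B6 CD8 (−0.57, adjusted P = 2.03e-05). Of all tested genes, 19.6% were higher and 19.5% lower in CD8.1 T cells than in B6 CD8. For CD8.2 and B6 CD4, the neighbours in the order of *Il2rg* and *Il9r*, neither chain passed the test, and 13.3% of tested genes were higher and 13.6% lower.

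Ratios between chains that pair in a receptor were also compared. Per kilobase of exon, the *Il2rb* level relative to *Il2rg* was 0.131 ± 0.017 in B6 CD4 and 0.628 ± 0.031 in B6 CD8, against 0.282 ± 0.069 in CD8.1 and 0.469 ± 0.019 in CD8.2 (SD, n = 3). These ratios did not overlap between any groups. *Il2rb* relative to *Il7r*, whose products both pair with the common chain, was 0.313 ± 0.097 in B6 CD4 and 1.36 ± 0.13 in B6 CD8, against 0.770 ± 0.13 in CD8.1 and 0.877 ± 0.034 in CD8.2. CD8.1 and CD8.2 overlapped in this ratio. *Il4ra* relative to *Il2rg* was 0.321 ± 0.027 in B6 CD4 and 0.219 ± 0.015 in B6 CD8, and these did not overlap. It was 0.255 ± 0.032 in CD8.1 and 0.245 ± 0.0039 in CD8.2, which overlapped, although *Il4ra* itself was higher in CD8.1. *Il7r* relative to *Il2rg* was 0.435 ± 0.073 in B6 CD4 and 0.464 ± 0.023 in B6 CD8, with 0.380 ± 0.15 in CD8.1 against 0.535 ± 0.043 in CD8.2, and both pairs overlapped. *Il6ra* relative to *Il6st* was 1.14 ± 0.15 in B6 CD4 and 0.763 ± 0.086 in B6 CD8, against 0.629 ± 0.039 in CD8.1 and 0.542 ± 0.082 in CD8.2. *Ifngr1* relative to *Ifngr2*, the second chain of its receptor, was 2.80 ± 0.20 in B6 CD4 and 3.61 ± 0.71 in CD8.1, against 11 ± 1.2 in B6 CD8 and 11.3 ± 0.94 in CD8.2. No test was run on the ratios.

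**Figure D3:**
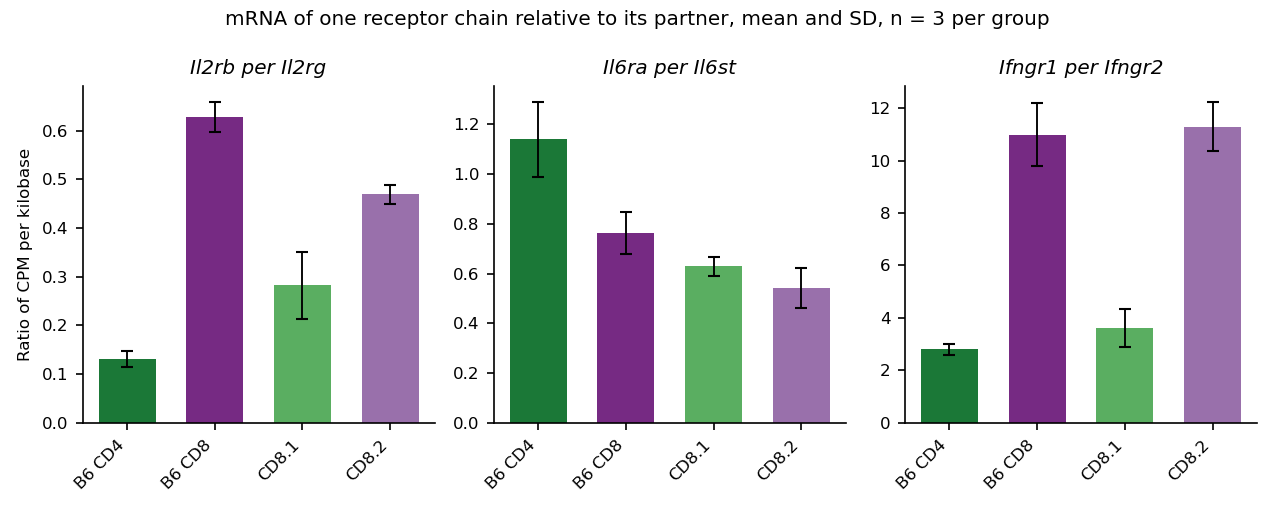
Ratio of CPM per kilobase of exon between receptor partners, as mean (bars, axes from 0) and SD (error bars) of 3 samples per group. *Il2rb* per *Il2rg* runs from 0.131 in B6 CD4 to 0.628 in B6 CD8 with both CD8Dual groups between, *Il6ra* per *Il6st* is lowest in CD8.2 at 0.542, and *Ifngr1* per *Ifngr2* is 2.80 and 3.61 in B6 CD4 and CD8.1 and 11 and 11.3 in B6 CD8 and CD8.2.

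The counts of genes called in the further lists stand beside the shares of all tested genes, and nothing particular to a list is read from them. The shares were 11.4% higher and 11.7% lower between the B6 lineages and 14.9% and 13.8% between CD8.1 and CD8.2. They were 6.94% and 5.82% between CD8.1 and B6 CD4, and 3.29% and 4.66% between CD8.2 and B6 CD8. For the difference between strains, 1.58% had a positive and 0.29% a negative term. Among 16 further receptor chains of these families, 12 were tested. In B6, 2 were higher and 5 lower in the CD4+ cells, and in CD8Dual mice 4 were higher and 4 lower in CD8.1. *Il2ra*, the α chain that makes the IL-2 receptor high affinity and also one of the regulatory T cell markers above, averaged 33.6 ± 8.41 CPM in B6 CD4 and 1.08 ± 0.262 in B6 CD8, against 95.4 ± 6.41 in CD8.1 and 1.73 ± 0.16 in CD8.2. It was higher in CD8.1 T cells than in B6 CD4 by 1.51 (SE 0.14, adjusted P = 1.12e-05). *Ifngr2*, which is needed for interferon gamma signalling, was higher in the helper lineage of both strains, by 0.94 in B6 (adjusted P = 3.81e-06) and 0.87 in CD8Dual mice (adjusted P = 1.09e-05), opposite to *Ifngr1*. *Il12rb2*, a chain of the IL-12 receptor, was lower by −2.84 in B6 CD4 than in B6 CD8 (adjusted P = 2.45e-05) and by −0.97 in CD8.1 than in CD8.2 (adjusted P = 0.048). *Il12rb1*, its partner, was lower by −1.67 in B6 CD4 (adjusted P = 4.16e-05) and higher in CD8.1 T cells than in B6 CD4 by 1.01 (adjusted P = 0.0107). *Il10rb*, shared by IL-10 and related cytokines, was lower by −1.08 in B6 CD4 (adjusted P = 1.68e-07) and by −0.77 in CD8.1 (adjusted P = 9.24e-06). Between CD8.1 and B6 CD4, 4 chains were higher and 0 lower (*Il2ra*, *Il12rb1*, *Crlf2* and *Ifnar2*), and *Crlf2*, the TSLP receptor chain that pairs with the IL-7 receptor α chain, rose by 0.37 (adjusted P = 0.0462) with overlapping samples. Between CD8.2 and B6 CD8, 0 of the 12 passed by edgeR and by limma voom and 1 by DESeq2, with 4 at an unadjusted P under 0.05. *Il12rb1* was the 1 chain that passed for the difference between strains (1.34, adjusted P = 0.0358). DESeq2 also called 1 of the 12 for this term and limma voom 0.

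Of 11 ligands of these receptors, 1 was tested. *Il21* averaged 0.657 ± 0.107 CPM in B6 CD4 and 0.578 ± 0.206 in CD8.1, with 0 counts in all B6 CD8 libraries and 0 to 3 in CD8.2, and it was higher in CD8.1 T cells than in CD8.2 (adjusted P = 0.00722). *Il4* had 1 to 11 counts in the CD8.1 libraries and 0 in every other library. *Il6*, *Il9* and *Tslp* had 0 counts in all 12 libraries. *Il7* had at most 1 count and *Il15* 0 to 11 counts per library.

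Of the JAK and STAT genes, 10 were examined and tested, and 1 was higher and 2 lower in B6 CD4 than in B6 CD8, against 1 higher and 2 lower in CD8.1 T cells than in CD8.2. *Stat4*, which carries IL-12 signals, was 40.2 ± 8.19 CPM in B6 CD4 and 83.9 ± 2.61 in B6 CD8, against 39.2 ± 4.69 in CD8.1 and 94.4 ± 2.35 in CD8.2. It was lower in the helper lineage by −1.06 in B6 (adjusted P = 8.33e-06) and by −1.27 in CD8Dual mice (adjusted P = 1.58e-06). *Jak1*, the kinase bound to most of these chains, was lower by −0.29 in B6 CD4 (adjusted P = 0.042) and by −0.46 in CD8.1 (adjusted P = 0.00201). *Stat5b*, which acts downstream of IL-2, IL-7 and IL-15, was higher by 0.39 in B6 CD4 (adjusted P = 0.000361) and by 0.31 in CD8.1 (adjusted P = 0.00228). Between CD8.1 and B6 CD4, 0 of the 10 passed by edgeR, limma voom or DESeq2, with 2 at an unadjusted P under 0.05. Between CD8.2 and B6 CD8, 0 passed by edgeR, limma voom or DESeq2, with 1 at an unadjusted P under 0.05.

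The CIS and SOCS genes encode inhibitors that cytokine signals induce. Of 8, 3 were higher and 2 lower in B6 CD4 than in B6 CD8, and 3 were higher and 1 lower in CD8.1 T cells than in CD8.2. *Cish*, a target of STAT5, averaged 16.4 ± 0.83 CPM in B6 CD4 and 4.74 ± 0.991 in B6 CD8, against 27.3 ± 1.49 in CD8.1 and 3.99 ± 0.106 in CD8.2. It was higher in CD8.1 T cells than in B6 CD4 by 0.73 (SE 0.12, adjusted P = 0.00145), and its lineage difference was larger in CD8Dual mice by 0.98 (SE 0.19, adjusted P = 0.00962). *Socs2*, also induced through STAT5, averaged 2.44 ± 0.737, 0.163 ± 0.0187, 5.50 ± 0.567 and 0.384 ± 0.00494 CPM in the same order. It was higher in CD8.1 T cells than in B6 CD4 by 1.17 (adjusted P = 0.00422). *Socs3*, an inhibitor that binds gp130, was higher in the helper lineage by 0.63 in B6 (adjusted P = 0.00683) and 0.49 in CD8Dual mice (adjusted P = 0.0253). *Socs5* was lower by −0.60 in B6 CD4 (adjusted P = 0.000207) and by −0.30 in CD8.1 (adjusted P = 0.0261). Between CD8.2 and B6 CD8, 0 of the 8 passed by edgeR and by limma voom and 2 by DESeq2, with 3 at an unadjusted P under 0.05. The regulatory T cell markers that were higher in CD8.1 moved with *Cish* and *Socs2*, and their part in these levels was not tested.

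Of 6 survival and growth genes controlled in part by STAT5, 2 were higher and 3 lower in B6 CD4 than in B6 CD8, and 2 were higher and 2 lower in CD8.1 T cells than in CD8.2. *Bcl2*, the anti-apoptotic target of IL-7, averaged 109 ± 5.79 CPM in B6 CD4 and 167 ± 3.44 in B6 CD8, against 79.4 ± 16.3 in CD8.1 and 98.9 ± 2.35 in CD8.2. It was lower in both CD8Dual groups, by −0.47 in CD8.1 against B6 CD4 (adjusted P = 0.0124) and by −0.75 in CD8.2 against B6 CD8 (adjusted P = 0.00065). *Il7r* did not differ by the test in these comparisons, and a link between the levels of both genes was not tested. *Pim1*, a kinase gene, was higher in the helper lineage by 0.76 in B6 (adjusted P = 4.29e-05) and 1.45 in CD8Dual mice (adjusted P = 4.66e-08), and this difference itself differed between strains (0.69, adjusted P = 0.0192). *Pim2* was lower by −1.33 in B6 CD4 (adjusted P = 9.07e-08) and by −0.91 in CD8.1 (adjusted P = 8.14e-06). *Bcl2l1*, which encodes the survival protein Bcl-xL, was higher in CD8.1 T cells than in CD8.2 by 0.81 (adjusted P = 0.000422). *Myc* rose by 0.42 in CD8.1 against B6 CD4 (adjusted P = 0.0277), with overlapping samples.

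Of 8 transcription factors known to act on *Il7r* or *Il2rb*, 3 were higher and 4 lower in the helper lineage of B6, and 3 were higher and 4 lower in CD8Dual mice. *Tbx21* and *Eomes* encode T-bet and Eomesodermin, which are known to activate *Il2rb*. *Tbx21* averaged 1.49 ± 0.522 CPM in B6 CD4 and 33.0 ± 3.83 in B6 CD8, against 1.45 ± 0.237 in CD8.1 and 14.5 ± 0.834 in CD8.2, and was lower in CD8.2 T cells than in B6 CD8 by −1.18 (SE 0.14, adjusted P = 0.000236). *Eomes* averaged 5.74 ± 1.11, 86.2 ± 23.2, 9.89 ± 3.05 and 78.2 ± 2.71 CPM in the same order, and was higher in CD8.1 T cells than in B6 CD4 by 0.79 (SE 0.23, adjusted P = 0.0347). Both also stand in the memory marker list. *Runx1* was higher in the helper lineage, by 1.47 in B6 (adjusted P = 1.06e-07) and 1.13 in CD8Dual mice (adjusted P = 2.36e-06), and *Runx3*, the cytotoxic lineage factor, was lower by −0.83 (adjusted P = 0.000313) and −0.64 (adjusted P = 0.00278). *Ets1* was lower in CD8.1 T cells than in B6 CD4 by −0.41 (adjusted P = 0.0231). *Foxo1*, an activator of *Il7r*, was lower in CD8.1 T cells than in B6 CD4 by −0.29 (adjusted P = 0.0138), and *Gfi1*, a repressor of *Il7r*, was higher by 0.57 (adjusted P = 0.0113).

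**Figure D4:**
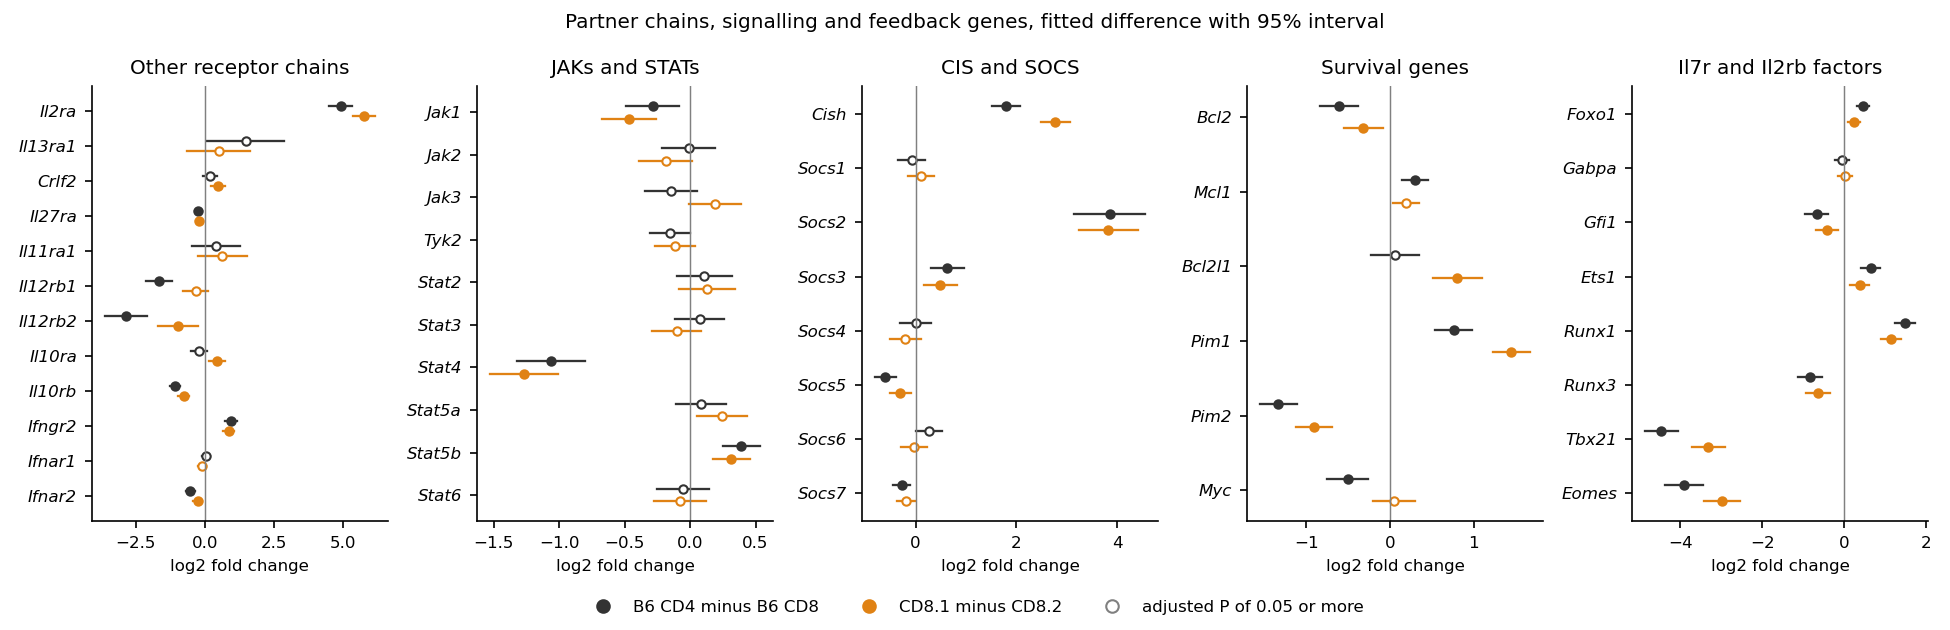
Fitted log2 fold changes with 95% intervals for the tested genes of 5 lists, between B6 CD4 and B6 CD8 (black) and between CD8.1 and CD8.2 (orange), with filled points for an adjusted P under 0.05. *Il2ra*, *Cish* and *Socs2* are far to the right in both strains, *Tbx21* and *Eomes* far to the left, and *Ifngr2* is to the right where *Ifngr1* was lower.

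For the 4 chains that spanned at least 1 on the log2 scale, the genes with the most similar pattern over the 12 samples were sought by Pearson's r of log2 CPM. The values are descriptive, since the samples form 4 groups and share their libraries and depth. *Il2rb* was most like *Hopx* (r = 0.987), *Itgae* (0.986) and *Trbv17* (0.980). *Itgae*, the αE integrin gene, averaged 4.62, 246, 29.1 and 101 CPM in B6 CD4 and B6 CD8 and in CD8.1 and CD8.2, respectively, which is the order of *Il2rb*. *Il9r* was most like *Lgals3* (0.983), *Nrn1* (0.977) and *Dcxr* (0.977), and *Lgals3*, which encodes galectin-3, averaged 1.85, 0.230, 8.62 and 1.00 CPM. *Il6ra* was most like *Pxylp1* (0.966), *Galnt6* (0.961) and *Nrd1* (0.958), and *Galnt6* averaged 231, 179, 157 and 147 CPM. *Ifngr1* was most like *Chst15* (0.988), *Lpxn* (0.987) and *Tm6sf1* (0.986), and *Lpxn*, the leupaxin gene, averaged 56.0, 125, 83.8 and 152 CPM.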

How the data were processed

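Per the labels and the study's methods, RNA of pooled sorted LN T cells was made into libraries with a low-input kit and sequenced in read pairs. The authors aligned reads to mm10 with STAR and name RSEM as the source of the raw counts per gene. The deposited counts are whole numbers with star.count in their column names, so which program counted the reads is uncertain. limma is named in the processing notes without a role, and versions are not given in the sources used here. Total counts were 18667474 to 37110502 per sample.

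Counts were fitted in R 4.3.3 with edgeR 4.0.16 (TMM, filterByExpr, glmQLFit and glmQLFTest) over all 12 samples with 1 mean per group. P values were adjusted by Benjamini-Hochberg over all 13118 tested genes, and a gene was called at an adjusted P under 0.05. CPM used TMM library sizes. CPM per kb used the union of exons of GENCODE M21, in which 49326 of 49585 gene IDs were found. The prior count of log2 CPM was 2. Intervals are 95%, and the limit for a count of 0 is 3 counts. The common biological coefficient of variation was 11.2%. Figures were drawn with matplotlib 3.10.9.

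Replicate numbers were checked for pairing by the correlation of same-numbered samples' deviations from their group means. B6 CD4 and B6 CD8 gave 0.126, 0.138 and 0.257, against −0.221 to 0.0999 for their samples with different numbers. No label states a shared day or batch. Samples that differed in both strain and number reached 0.167 (CD8.1 and B6 CD4) and 0.17 (CD8.2 and B6 CD8). The correlations therefore cannot decide whether samples were paired. All values of the report are from the fit without a block. Adding a block for the replicate number changed no call of a receptor chain between B6 CD4 and B6 CD8. CD8.1 and CD8.2 gave −0.00388, 0.0905 and 0.119 for the same number, and no label states a pairing for them either. Replicates differed by more than sampling noise, with a mean chi-square per gene of 8.48 to 83.7 between 2 replicates of a group.

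Genes named are all 10 chains, up to 4 genes of each further list and comparison with the largest called change, the 3 most similar genes of each chain spanning at least 1 on the log2 scale, and co-receptor genes. The chains and lists were chosen with earlier results of these data known. *Foxp3*, *Cd44*, *Zbtb16*, *Gm42418*, *Itga4*, *Ly6c2*, *Nkg7* and the ligands that were not tested were named after their values were seen. DESeq2 1.42.0, limma 3.58.1 with voom weights, other filters and scalings, replicate blocks and leaving out each sample were alternatives. Listed genes outside this rule enter the counts only, and 1 gene was left out of the further lists and their counts and is not reported here.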

Additional observations from a re-analysis of the deposited data

Results flagged for a closer look

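The lineage difference of *Il2rb* differed between the strains by a test of the difference itself. B6 CD8 exceeded B6 CD4 by 2.31 on the log2 scale (B6 CD4 minus B6 CD8, −2.31) and CD8.2 exceeded CD8.1 by 0.39 (CD8.1 minus CD8.2, −0.39), a term of 1.93 (SE 0.13, adjusted P = 4.78e-07, edgeR's quasi-likelihood test, n = 3 per group). All 3 CD8.1 samples were above all 3 B6 CD4 samples, and all 3 CD8.2 samples were below all 3 B6 CD8 samples. The same term passed the test with a positive sign for 5 of 10 memory and 4 of 10 regulatory T cell markers, against 1.58% of all tested genes. The median lineage difference was smaller in CD8Dual mice for the memory markers and larger for the regulatory T cell markers. The part of these markers in the *Il2rb* term was not tested.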

How the results depend on the processing

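Of 1390 values of the receptor chains recomputed under alternatives, 1372 kept their call, 5 lost it and 13 gained it. No called value changed sign, and 43 uncalled values of 5 chains did. Under a fold change over 5 with an unadjusted P under 0.05, the count of chains called was 1 in each pairwise comparison and 0 for the difference between strains. Under a fold change over 2 it was 3 in B6, 1 in CD8Dual, 2 for CD8.1 and B6 CD4 and 1 for CD8.2 and B6 CD8. Without a filter on low counts, 2 chains passed for the difference between strains, where *Il2rg* gave 0.44 (adjusted P = 0.0201). With only the groups compared in the fit, 5 passed between CD8.2 and B6 CD8, adding *Il2rg* (adjusted P = 0.028) and *Ifngr1* (0.0135). Leaving out each sample gave 6 chains in B6, 5 to 7 in CD8Dual, 4 to 5 for CD8.1 and B6 CD4, 3 to 5 for CD8.2 and B6 CD8, and 1 to 2 for the difference between strains, with the highest counts without CD8.1 replicate 1. That sample's absence also brought *Il2rg* to 0.59 for the difference between strains (adjusted P = 0.000267).

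A replicate block shared by the strains left 6, 6, 4, 3 and 1 chains called in the same order. A replicate block within each strain gave 6, 7, 4, 3 and 1. The added call was *Il6ra* in CD8Dual mice (0.23, adjusted P = 0.0288), where no label states a pairing. No other call changed with the block. Using the longest transcript in place of the union of exons raised *Il2rg* to 225 to 295 CPM per kb. Depth limits *Il9r* in B6 CD8, where 5 counts were summed over 3 libraries.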
